A study of Mus musculus with 23 samples.

Results

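The genes described here encode the enzymes of cholesterol and fatty acid synthesis and the proteins that control them. They are 36 genes of the 55487 gene identifiers counted. They were taken as a named set because Scd1 and Gpam were higher in soma libraries of stretched than of control cultures, so that soma contrast chose the set and its values are given below as a description, with no test read from them. By role, 17 members are enzymes of cholesterol synthesis, 6 control the pathway through the sterol regulatory element binding proteins (SREBPs) or move sterols, 11 make or modify fatty acids and 2 build glycerolipids. Each of the 36 symbols matched 1 identifier, and each had counts in all 12 soma libraries.

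RNA was sequenced from primary mouse hippocampal neurons grown in microfluidic chambers, in which axons reach a separate compartment. The cells came from pups of postnatal day 1 with the genotype C57Bl/6. All cultures, controls included, received 5 µg/ml of magnetic nanoparticles (MNPs). Stretched cultures were held in a magnetic field gradient of 50 T/m between days in vitro (DIV) 1 and 6, whereas control cultures had a null gradient. The 23 libraries were 5 from control axons, 6 from control somata, 6 from stretched axons and 6 from stretched somata. An axon library is labelled as a pure axonal preparation and a soma library as a total cell culture, so the soma libraries are not limited to cell bodies. The labels do not say which libraries are separate cultures or animals, and p-values therefore measure the spread between libraries only.

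Cholesterol synthesis starts from acetyl-CoA, which is built up to mevalonate, then to isoprenoid units, squalene, lanosterol and finally cholesterol. Fatty acid synthesis starts from the same acetyl-CoA, which is carboxylated to malonyl-CoA and assembled by fatty acid synthase, after which elongases and desaturases lengthen the chain and add double bonds. When sterols in the endoplasmic reticulum fall short, SCAP escorts the SREBPs to the Golgi for cleavage, and the released fragments switch on genes of both routes, while INSIG proteins hold SCAP back. In the brain cholesterol is made locally, since the blood-brain barrier keeps out lipoprotein cholesterol, and growing axons need lipids for new membrane.

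Promoters are shown because SREBPs act there, and whether their letters relate to the soma changes was not tested. RefSeq promoters of build GRCm38.p6, which is the assembly also called mm10, were found for 29 of the 36 members. None was found for Scd1, Scd2, Fads1, Fdft1, Fdps, Sqle and Stard4. Each runs from 250 bases before to 50 bases after a start site, 300 bases in all. The 4 printed here were picked because they hold the letters TCACNCCA, a core of a commonly cited sterol regulatory element, TCACNCCAC. Capitals mark TCACNCCA and CCAAT on either strand, so that CCAAT on the opposite strand reads ATTGG.
Hmgcs1 (chr13:119690101-119690400, plus strand): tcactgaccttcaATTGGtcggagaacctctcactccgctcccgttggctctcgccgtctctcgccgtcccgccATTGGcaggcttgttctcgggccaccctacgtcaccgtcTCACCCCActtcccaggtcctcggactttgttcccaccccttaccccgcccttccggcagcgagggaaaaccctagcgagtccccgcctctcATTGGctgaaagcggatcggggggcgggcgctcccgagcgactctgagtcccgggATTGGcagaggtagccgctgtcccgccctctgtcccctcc
Msmo1 (chr8:64733529-64733828, minus strand): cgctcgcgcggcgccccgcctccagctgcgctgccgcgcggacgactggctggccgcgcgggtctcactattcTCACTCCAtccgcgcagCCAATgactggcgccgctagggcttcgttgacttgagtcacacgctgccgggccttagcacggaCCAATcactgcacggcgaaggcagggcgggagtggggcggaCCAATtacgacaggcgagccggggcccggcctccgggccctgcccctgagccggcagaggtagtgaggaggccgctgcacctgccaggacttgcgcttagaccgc
Srebf2 (chr15:82147019-82147318, plus strand): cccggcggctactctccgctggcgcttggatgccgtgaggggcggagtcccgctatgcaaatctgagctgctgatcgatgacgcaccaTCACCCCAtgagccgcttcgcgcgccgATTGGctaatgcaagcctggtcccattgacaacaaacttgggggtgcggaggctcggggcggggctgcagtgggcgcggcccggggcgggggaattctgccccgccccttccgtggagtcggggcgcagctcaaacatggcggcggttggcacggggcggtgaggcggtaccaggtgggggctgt
Gpam (chr19:55127189-55127488, minus strand): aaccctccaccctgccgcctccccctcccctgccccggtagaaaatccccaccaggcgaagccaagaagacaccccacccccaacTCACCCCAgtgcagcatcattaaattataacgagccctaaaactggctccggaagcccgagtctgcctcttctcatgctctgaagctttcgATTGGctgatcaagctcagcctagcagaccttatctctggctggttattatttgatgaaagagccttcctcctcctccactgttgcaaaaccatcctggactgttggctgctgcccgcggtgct
In these 4 promoters TCACNCCA stands on the printed strand, with its first base 137 bases before the start site in Hmgcs1, 177 in Msmo1, 162 in Srebf2 and 165 in Gpam. The Hmgcs1 promoter holds 4 CCAAT copies, Msmo1 holds 3, and Srebf2 and Gpam hold 1 each.

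In all, 7 patterns were searched on both strands, and the shorter core was taken up after the longer form had matched 1 member. TCACNCCAC was found in 1 of the 29 members with a promoter (Hmgcs1) and in 1.44% of the 27025 genes with a promoter. TCACNCCA, which lies inside it, was found in 4 members (13.8%) and 4.97% of genes. CCAAT was found in 24 members (82.8%) and 41.1% of genes. CACGTG was found in 6 members (20.7%) and 8.09% of genes. The other patterns were GGGCGG, in 22 members (75.9%) and 38.2% of genes, TCACNNCAC, which covers the longer sterol element, in 4 members (13.8%) and 4.37% of genes, and CCAAT followed after 10 further bases by TCAC, in 0 members and 0.218% of genes. A match describes the letters in the window and does not show that a factor binds there.

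Total counts ranged from 16369153 to 43048953 per library, and a floor of 3 counts corresponded to 0.0697 to 0.183 counts per 1000000 counts of a library (CPM). Axonal libraries had counts for 4263 to 10242 genes and soma libraries for 22452 to 24575. The neuron, astrocyte, oligodendrocyte, microglia, and fibroblast or endothelial marker lists checked the labels. The 10 neuron markers summed to 1026 to 3238 CPM in control axons and 1632 to 2795 CPM in stretched axons, against 4701 to 5597 CPM in somata. The 10 astrocyte markers summed to 4028 to 21500 CPM (median 17140) in control axons and 4054 to 19760 CPM (median 7247) in stretched axons. In somata they summed to 4799 to 13000 CPM (medians 7813 in control and 8001 in stretched somata). Only Gjb6 was at 0 in axons, so the axonal libraries hold astrocyte RNA. In axons 5 of 10 oligodendrocyte markers were at 0 in each group (Mag, Olig2, Sox10 and Cspg4 in both), as were 5 of 8 microglia markers in control axons (Cx3cr1, P2ry12, Csf1r, Aif1 and C1qa) and 1 of 8 in stretched axons (P2ry12). The oligodendrocyte list summed to 8.04 to 438 CPM in control axons and 0.0611 to 281 CPM in stretched axons, against 105 to 196 CPM in somata. The microglia list summed to 0 to 494 CPM (median 0.111) in control axons and 0 to 401 CPM (median 0.0642) in stretched axons. In somata the microglia list summed to 28.4 to 76.3 CPM. For both lists the highest axonal library lay above every soma library. The 8 fibroblast or endothelial markers summed to 0 to 1110 CPM in axons and 140 to 265 CPM in somata, with Cldn5 at 0 in both axonal groups. The soma libraries fell into 2 sets by Eif2s3y, a gene on the Y chromosome. The high set, control replicates 1, 2 and 3 and stretched replicates 1, 2 and 8, had astrocyte marker sums of 9806 to 12998 CPM, and the low set, replicates 4, 5 and 6 of both groups, 4799 to 5897 CPM. Control soma replicate 4 stands apart from the other controls in several members below. In bulk RNA, fewer cells of a type and less RNA per cell cannot be told apart.

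In somata, the SREBP gene Srebf2 and the fatty acid genes Scd1, Fasn, Acly, Fads2 and Fads1 were higher in stretched cultures, while the cholesterol enzymes that passed were split between higher and lower. All values below are CPM scaled by TMM (trimmed mean of M values, a normalisation for library composition) within the comparison named, and a change is a log2 fold change with its standard error (SE). At an edgeR adjusted p under 0.05 over all 15632 genes tested, 10 members were higher and 2 lower in stretched somata, where 25.1% of all genes passed, 11.2% higher and 13.9% lower. By role, 5 of 11 fatty acid genes were higher and 0 lower, 3 of 17 cholesterol enzymes were higher and 2 lower, and 1 of 6 control genes and 1 of 2 glycerolipid genes were higher. The median log2 fold change was 0.30 for the fatty acid genes, -0.0082 for the cholesterol enzymes and 0.18 for all 36 members, against -0.028 for all genes tested. Because the set was chosen on this contrast, nothing is read from these counts. The same holds for which single members passed, which is given below as a description.

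**Figure D1:**
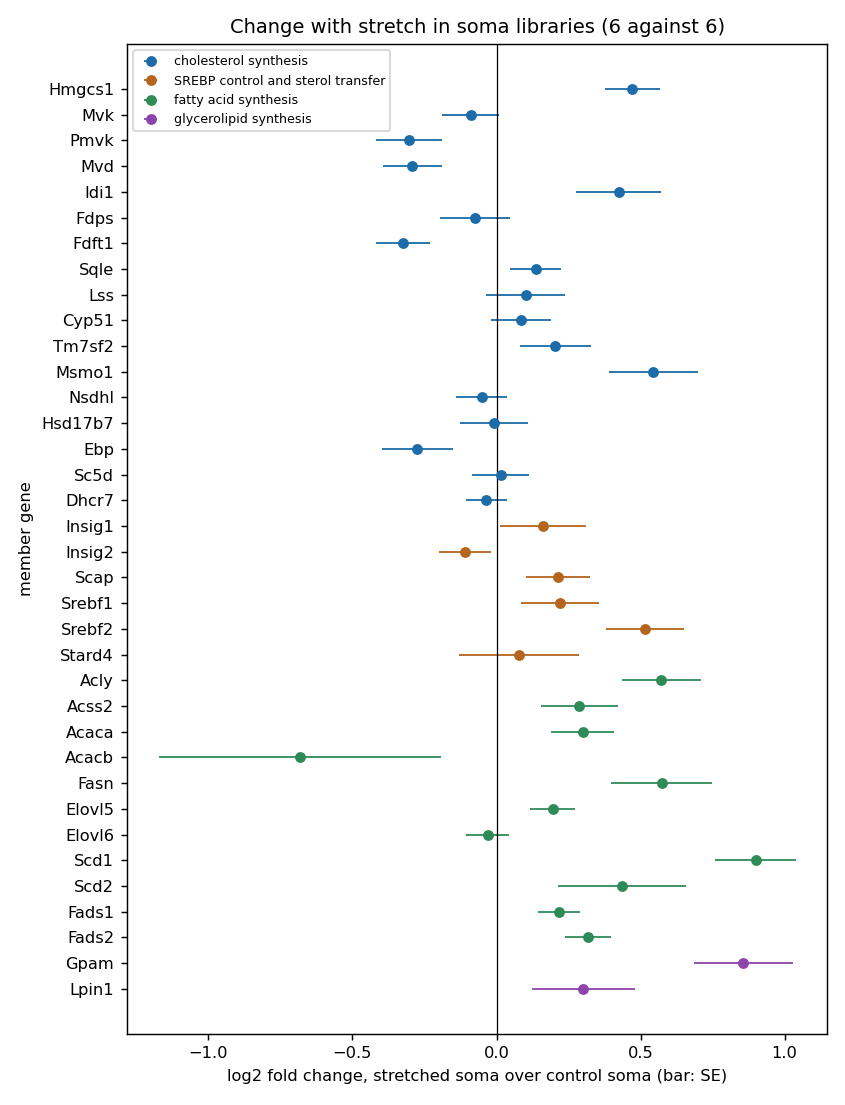
Log2 fold change of stretched over control somata for each of the 36 members, with the standard error as a bar and the colour giving the role. Scd1 at 0.90 and Gpam at 0.86 lie farthest to the right, and Acacb at -0.68 farthest to the left with the widest bar.

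Among the control genes, Srebf2, which encodes the SREBP that mainly drives cholesterol genes (ENSMUSG00000022463, chr15:82147181-82205379, plus strand, mm10), ranged from 309 to 615 CPM (median 384) in control somata and from 526 to 627 CPM (median 580.4) in stretched somata. The groups overlapped through control replicate 4 alone, which was at 615 CPM while the other controls were at or below 392 CPM. The change was 0.52 (SE 0.14). Srebf1, which encodes the SREBP that mainly drives fatty acid genes, ranged from 47.7 to 70.7 CPM (median 58.6) in control and 53.7 to 84.3 CPM (median 71.5) in stretched somata, a change of 0.22 (SE 0.13) that did not pass. Insig1, a retention protein that is itself an SREBP target, ranged from 129 to 237 CPM (median 189) and 181 to 248 CPM (median 204), a change of 0.16 (SE 0.15) that did not pass. Within both genes the groups overlapped over most of their range. The SCAP gene Scap changed by 0.21, Insig2 by -0.11 and the sterol transfer protein gene Stard4 by 0.077, and none of these passed.

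Along the cholesterol route the higher genes were near its start and at a late demethylation step. Hmgcs1, which makes the direct precursor of mevalonate, ranged from 1061 to 1531 CPM (median 1081) in control and 1520 to 1806 CPM (median 1633) in stretched somata. Control replicate 4, at 1531 CPM, was the only control within the stretched range. The change was 0.47 (SE 0.095). Idi1, the isomerase of the isoprenoid units, was higher by 0.42 (SE 0.15). Msmo1, an oxidase that takes part in removing methyl groups between lanosterol and cholesterol, was higher by 0.54 (SE 0.16). In Msmo1 control replicate 4 was again highest among the controls at 657 CPM, with the others at 286 to 432 CPM and the stretched libraries at 537 to 725 CPM.

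Fdft1, the squalene synthase that commits the route to sterols, ranged from 618 to 846 CPM (median 733) in control and 525 to 637 CPM (median 595) in stretched somata, a change of -0.33 (SE 0.094). Its groups overlapped between 618 and 637 CPM. Pmvk, which phosphorylates phosphomevalonate, ranged from 167 to 219 CPM (median 196) and 126 to 208 CPM (median 149.8), a change of -0.30 (SE 0.12) that did not pass. Mvd, the decarboxylase next in line, had a change of about the same size, -0.29 (SE 0.10), which passed. Sqle, the squalene epoxidase, ranged from 975 to 1229 CPM (median 1084) and 1012 to 1368 CPM (median 1221), with a change of 0.14 (SE 0.089) that did not pass. The other 10 cholesterol enzymes did not pass and had changes from -0.28 (Ebp, a sterol isomerase) to 0.20 (Tm7sf2, a sterol reductase).

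Among the fatty acid genes, Scd1, the stearoyl-CoA desaturase that places the first double bond in saturated chains (ENSMUSG00000037071, chr19:44394455-44407879, minus strand, mm10), ranged from 249 to 417 CPM (median 285) in control and 452 to 776 CPM (median 549) in stretched somata. The groups did not overlap, and control replicate 4 was the highest control. The change was 0.90 (SE 0.14). Scd2, a close paralog on the same chromosome, was at 423, 435, 447 and 408 CPM in stretched replicates 4, 2, 6 and 8, within the control range of 358 to 494 CPM, but at 1060 and 708 CPM in stretched replicates 1 and 5. Its change of 0.44 (SE 0.22) did not pass. Reads shared by near-identical stretches of Scd1 and Scd2 may be missing from both, because reads that align to several places are kept in a separate total.

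Fasn, fatty acid synthase, ranged from 364 to 902 CPM (median 527) in control and 699 to 918 CPM (median 864) in stretched somata. The groups overlapped through control replicate 4 alone, at 902 CPM, with the other controls at 364 to 590 CPM, and the change was 0.57 (SE 0.18). Acly, the citrate lyase that supplies cytosolic acetyl-CoA, was higher by 0.57 (SE 0.14), with control replicate 4 at 861 CPM among stretched libraries of 730 to 961 CPM. Fads2, the desaturase that opens the polyunsaturated route, ranged from 973 to 1142 CPM (median 1063) and 1172 to 1591 CPM (median 1293), without overlap, a change of 0.32 (SE 0.08). Its neighbour Fads1, the next desaturase, was higher by 0.22 (SE 0.073). Acacb, the mitochondrial acetyl-CoA carboxylase isoform, was barely expressed, at 0.175 to 2.95 CPM (median 1.29) and 0.437 to 1.32 CPM (median 0.958), and its change of -0.68 (SE 0.49) did not pass. The cytosolic isoform Acaca (0.30), the acetate-using Acss2 (0.29) and the elongases Elovl5 (0.19) and Elovl6 (-0.03) did not pass.

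Gpam, the mitochondrial acyltransferase that starts glycerolipid synthesis (ENSMUSG00000024978, chr19:55067268-55127238, minus strand, mm10), ranged from 72 to 132 CPM (median 98.8) in control and 135 to 228 CPM (median 174) in stretched somata, without overlap. In both conditions the high Eif2s3y set tended to lie above the low set, at 91.1 to 132 against 72.0 to 115 CPM in control and 199 to 228 against 135 to 149 CPM in stretched somata. The change over all libraries was 0.86 (SE 0.17). Lpin1, a phosphatidate phosphatase later in the same route, had a change of 0.30 (SE 0.18) that did not pass.

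**Figure D2:**
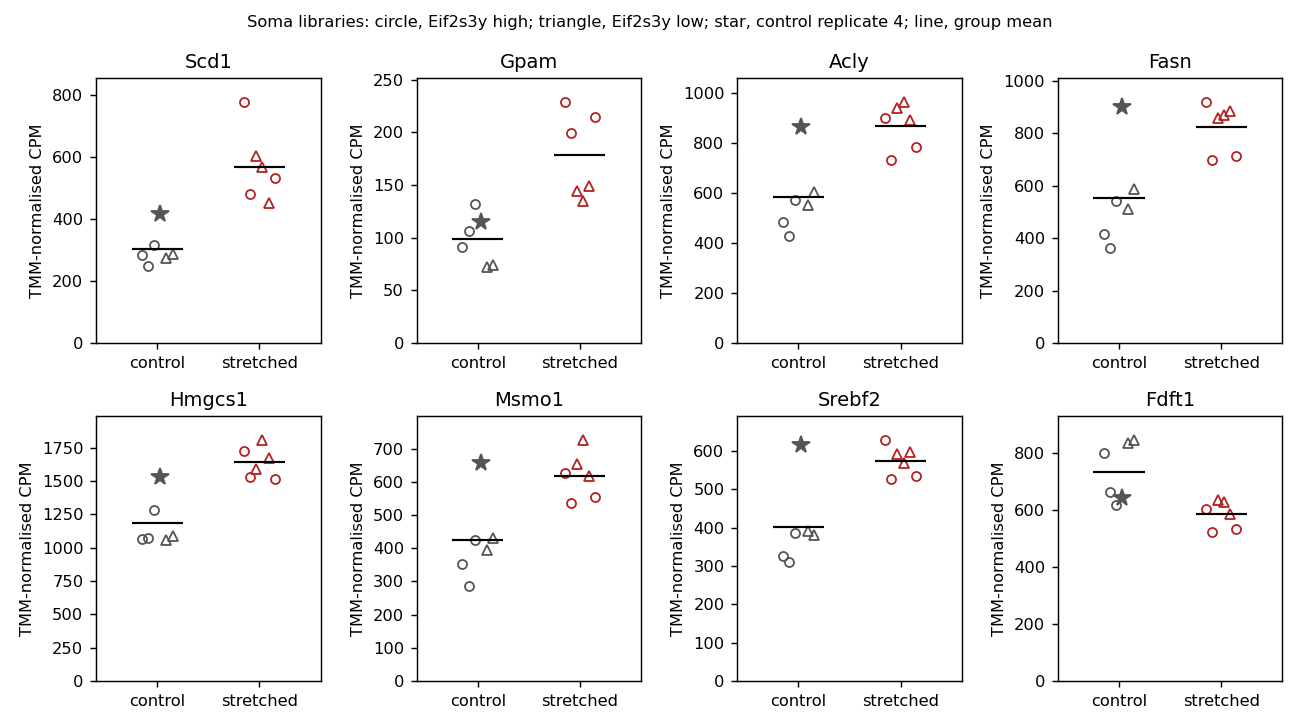
TMM-normalised CPM of 8 members in each of the 6 control and 6 stretched soma libraries, with the group mean as a line, circles for the high and triangles for the low Eif2s3y set and a star for control replicate 4. The star lies among the stretched libraries for Srebf2, Fasn, Acly, Hmgcs1 and Msmo1, and below them for Scd1 and Gpam.

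These soma values depended on which libraries were set against each other. Without control soma replicate 4, 12 members were higher and 3 lower, where 38.3% of all genes passed. Without control soma replicate 1, 6 were higher and 0 lower, where 16.8% passed. Within the high Eif2s3y set, 16 members were higher and 2 lower (29.2% of all genes), and within the low set 0 members and 0 genes passed with edgeR, with 2739 genes at an unadjusted p under 0.05. Within the low set without control replicate 4, in a comparison added after seeing the data, 10 were higher and 1 lower (27.5% of all genes). The changes of Scd1 were 1.12 in the high and 0.73 in the low set, those of Gpam 1.01 and 0.71 and those of Srebf2 0.77 and 0.34. Scap changed by 0.55 in the high set and by -0.062 in the low set. The part of the sets' differing astrocyte marker sums in these values was not tested.

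Transcript length also moved with the soma changes. Over the 15619 genes tested that have a length, the log2 fold change rose with the length of the longest annotated transcript (Spearman's rho 0.457), and over the 36 members rho was 0.427. These values run across genes, which share libraries and are not independent. With offsets for length and GC content 9 members were higher and 2 lower, where 16.0% of all genes passed. Mvd (longest transcript 1833 bases) then changed by 0.028 and Pmvk (1194 bases) by 0.027, while Fdft1 remained at -0.36, Scd1 at 0.73, Gpam at 0.65 and Srebf2 at 0.45.

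Genes of the same routes that are not members were read from lists drawn up with earlier results of these data known, in the same soma contrast and therefore also as a description, beside 11.2% of all genes higher and 13.9% lower. Of 13 other genes of sterol synthesis and its control that were tested, 5 were higher and 0 lower, with a median of 0.28. Mbtps2, a protease that cleaves SREBPs, changed by 0.62 (SE 0.17) and Erlin2, a protein of the endoplasmic reticulum that takes part in protein degradation there, by 0.57 (SE 0.11). Of 15 genes of sterol storage, transport and efflux, 1 was higher and 2 lower, with a median of -0.066. Npc1, which exports cholesterol from lysosomes, changed by 0.51 (SE 0.12), Nceh1, a cholesteryl ester hydrolase, by -0.51 (SE 0.10), and the lipoprotein gene Apoe by -0.60 (SE 0.30), which did not pass. Of 32 other fatty acid and glycerolipid genes tested, 4 were higher and 5 lower, with a median of -0.015. The largest changes there were those of Gpat3 (0.77 (SE 0.33)) and Scd4 (0.73 (SE 0.51)), which did not pass, and of the elongase gene Elovl1 (-0.57 (SE 0.16)), which was lower.

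To compare genes with each other, levels were divided by the length of the longest annotated transcript, in CPM per kilobase. In control somata the 4 highest were Hmgcs1 at 337 ± 58.5, Fads2 at 333 ± 23.3, Sqle at 239.7 ± 22.2 and Fdft1 at 196 ± 26 CPM per kilobase (SD, n = 6 each). Hmgcs1 and Fads2 differed by less than their spread, as did Scap at 18.2 ± 2.44 and Idi1 at 18.6 ± 4.94 lower in the order. The lowest were Lpin1 at 5.52 ± 1.85, Acaca at 4.39 ± 0.761 and Acacb at 0.158 ± 0.117 CPM per kilobase. Among paralogs, Scd2 at 77.7 ± 10.6 lay above Scd1 at 62.3 ± 12.8 in control somata, by about their spread, and in stretched somata Scd1 was at 119 ± 23.9 and Scd2 at 108 ± 48. Srebf2 at 78.1 ± 22.1 was above Srebf1 at 13.8 ± 2.22, and Insig1 at 68.2 ± 17.5 above Insig2 at 23.4 ± 2.4, by more than the spread in each case. The levels of Fdps are uncertain, since 26.7% of its exon bases overlap a gene on the same strand, as are those of Fdft1, where 18.3% overlap Ctsb on the opposite strand. Overlap was over 10% in 5 members, the others being Hmgcs1, Scap and Tm7sf2.

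**Figure D3:**
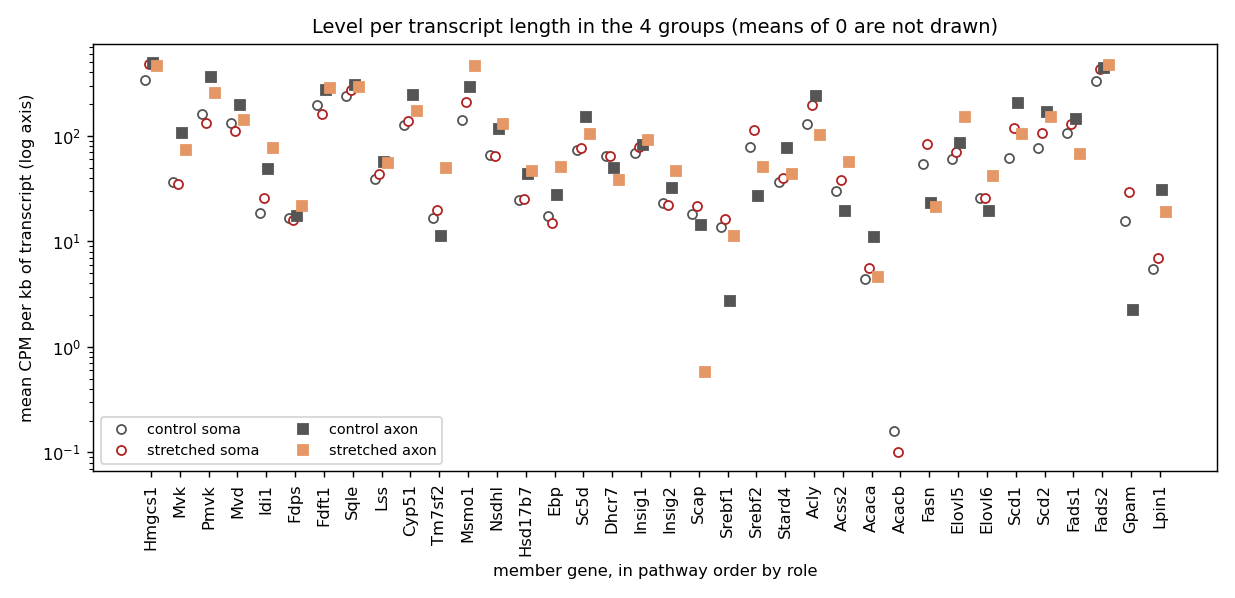
Mean CPM per kilobase of transcript on a log axis for each member in the 4 groups, with open circles for somata and filled squares for axons. Hmgcs1 and Fads2 are near the top in all 4 groups, while Acacb lies below 1 in somata and has no axonal point.

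In axonal libraries most members were detected, which was a question of presence since these libraries hold counts for far fewer genes. They also hold astrocyte RNA, so a count in them is not shown to come from axons. Of the 36 members, 30 had counts in at least 6 of the 11 axonal libraries, 11 in all of them and 1, Acacb, in none. By role these 30 were 16 of 17 cholesterol enzymes, 9 of 11 fatty acid genes, 4 of 6 control genes and 1 of 2 glycerolipid genes. A control axon library held counts for 22 to 35 members (median 27) and a stretched axon library for 22 to 34 (median 28.5). Detection followed the soma level: of the 2279 genes at 100 to 1000 CPM in somata 85.2% had counts in at least 6 axonal libraries, as did 21 of the 22 members in that range. At 10 to 100 CPM the share was 30.7% of 7162 genes and 6 of 10 members. At 0.1 to 10 CPM, the level of Acacb, it was 5.91% of 10259 genes and 0 of 1 member. The exception above 100 CPM was Gpam, with a mean of 139 CPM in somata and counts in 1 axonal library, control replicate 5. Of the 2279 genes at that level, 7 (0.307%) had counts in at most 1 axonal library.

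**Figure D4:**
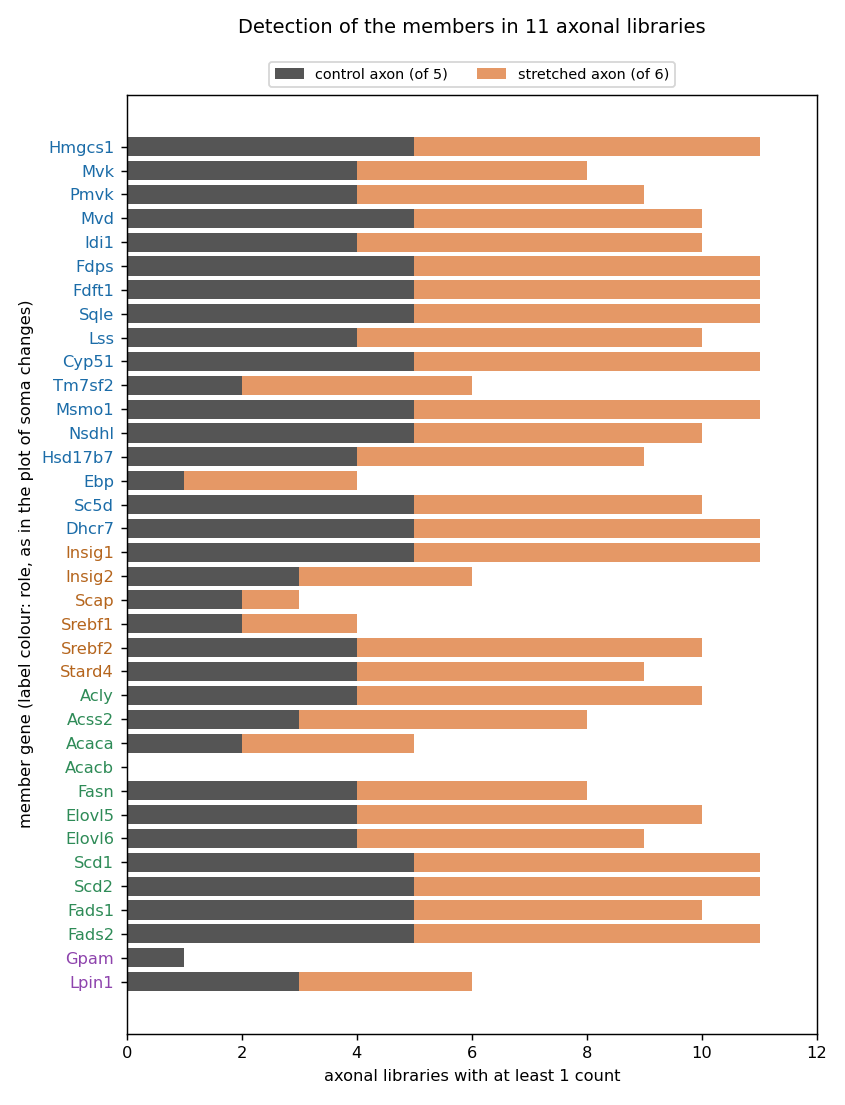
Number of axonal libraries with at least 1 count for each member, stacked as control (of 5) and stretched (of 6). Most bars reach 9 to 11, Gpam reaches 1 and Acacb has none.

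The members held 1.57 ± 0.218% of all counts in control axons (SD, n = 5), 1.44 ± 0.160% in stretched axons, 1.05 ± 0.119% in control somata and 1.31 ± 0.103% in stretched somata (SD, n = 6 each). The lowest control axon library, at 1.33%, lay above the highest control soma library, at 1.26%, while stretched axons and somata overlapped. Axonal libraries had counts for far fewer genes, and the shares of other genes of like soma level were not compared. Astrocyte markers summed to a median of 17140 CPM in control axons and 7813 CPM in control somata, and their part in these shares was not tested. The cholesterol enzymes held most of the members' share, at 0.894 ± 0.186% in control axons and 0.566 ± 0.0517% in control somata.

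The values in each axonal library are given in CPM on the scale of the comparison of the 2 axonal groups, with control replicates in the order 1, 2, 3, 5 and 7. Of the early cholesterol enzymes, Hmgcs1 was at 791, 1398, 1709, 2779 and 2019 in control axons and ranged from 809 to 2385 CPM (median 1773) in stretched axons. The mevalonate kinase Mvk was at 184, 450.0, 303, 348 and 0 and from 0 to 326 CPM (median 212). Pmvk was at 869, 0, 269, 613 and 487 and from 0 to 407 CPM (median 359). Hmgcs1 was present throughout, while Mvk and Pmvk were above 100 CPM in most libraries and at 0 in others. Mvd was at 253, 477, 204, 437 and 440.5 and from 0 to 767 CPM (median 74.1). Idi1 was at 0, 182, 30.2, 304 and 249 and from 124 to 344 CPM (median 219). Fdps, which joins isoprenoid units to farnesyl diphosphate, was at 6.8, 112, 9.22, 133 and 10.4 and from 14.7 to 147 CPM (median 47.1). Mvd had counts in all 5 control libraries and was at or under 113 CPM in 4 of 6 stretched libraries, and the groups overlapped in each of the 6 genes.

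At the squalene and lanosterol steps, Fdft1 was at 1151, 330.3, 956, 1444 and 1294 in control axons and from 401 to 1459 CPM (median 1193) in stretched axons. Sqle was at 507, 1041, 1490.2, 1813 and 2131 and from 141 to 2211 CPM (median 1319). The lanosterol synthase Lss was at 371, 0, 229, 1066 and 434 and from 0.341 to 978 CPM (median 288). Fdft1 and Sqle had counts in all 11 libraries and Lss in 10. Cyp51, the demethylase that acts on lanosterol, was at 679.6, 1282, 814, 1105 and 981 and from 0.296 to 1085 CPM (median 750.3). Msmo1 was at 361, 595, 1007, 1043 and 1407 and from 556 to 2060 CPM (median 1546). Cyp51 was within 568 to 1282 CPM in 10 libraries and at 0.296 CPM in stretched replicate 1, the library in which Msmo1 was highest. Nsdhl, a dehydrogenase of the demethylation complex, was at 269, 266, 281, 85.8 and 338 and from 0 to 729 CPM (median 263). Its partner reductase Hsd17b7 was at 0, 255, 154, 322 and 291 and from 0 to 551 CPM (median 158). Tm7sf2 was at 0, 0, 166, 8.09 and 0 and from 0 to 426 CPM (median 119.5). Of these Tm7sf2 was at 0 in 3 of 5 control libraries. The desaturase Sc5d was at 1269, 1068, 11.5, 764 and 491 and from 0 to 750.3 CPM (median 577). Dhcr7, the reductase of the last step, was at 59.2, 109, 231, 288 and 50.2 and from 0.263 to 384 CPM (median 85.6). Ebp had counts in 4 axonal libraries only. The groups overlapped in all of these genes.

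Among the control genes in axons, Insig1 was at 293, 201, 25.1, 399 and 215 in control and from 1.06 to 477 CPM (median 219) in stretched axons. Insig2 was at 274, 0, 4.08, 168 and 0 and from 0 to 375 CPM (median 50.2). Srebf2 was at 424, 0, 19.5, 257 and 3.35 and from 29.9 to 362 CPM (median 304). Srebf2 was at or under 19.5 CPM in 3 of 5 control libraries and above 200 CPM in 5 of 6 stretched libraries, with overlap. Srebf1 was at 0.054, 0, 0, 68.8 and 0 and, in stretched axons, at 0 in 4 libraries and at 233 and 80.5 CPM in replicates 6 and 8. Stard4 was at 0.486, 381, 0, 664 and 958 and from 0 to 667 CPM (median 162). Scap had counts in 3 axonal libraries.

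Among the fatty acid genes in axons, Acly was at 0, 1676, 1005, 1198 and 1451 in control and from 9.74 to 878 CPM (median 491) in stretched axons. Acss2 was at 120.4, 0, 0, 264 and 0.0752 and from 0 to 615 CPM (median 189.9). Fasn was at 0, 356, 43.4, 331 and 439 and from 0 to 473 CPM (median 214). Acly was above 1000 CPM in 4 of 5 control libraries and below that in all 6 stretched libraries, but was at 0 in control replicate 1, so the groups overlapped. Elovl5 was at 0, 0.047, 422, 213 and 572 and from 1.25 to 746 CPM (median 405). Elovl6 was at 139, 0, 140.1, 152 and 161 and from 0 to 489.6 CPM (median 259). Both elongase genes were absent or near 0 in at least 1 library of each group. Scd1 was at 1743, 506, 1076, 422 and 1138 and from 52.9 to 1182 CPM (median 464). Scd2 was at 561, 857, 1216, 806 and 1222 and from 555 to 1160 CPM (median 804). The desaturase genes Scd1 and Scd2 had counts in all 11 libraries. Fads1 was at 1030.4, 651, 77.2, 153 and 531 and from 0 to 510.1 CPM (median 278). Fads2 was at 2969.7, 1332, 951, 869 and 830.0 and from 956 to 1989 CPM (median 1355). Fads2 was above 800 CPM in every axonal library. Acaca had counts in 5 axonal libraries. Of the glycerolipid genes, Lpin1 was at 314, 0, 502, 38.7 and 0 and from 0 to 526 CPM (median 0.0181), and Gpam was at 81.6 CPM in control replicate 5 and at 0 in the other 10.

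Stretch was not associated with a detectable change of any member in axons. With edgeR 0 of the 30 members tested passed, and 0 of 4947 genes tested did (0% of genes), with 46 genes and 0 members at an unadjusted p under 0.05. DESeq2 called 18 genes and 0 members. The median log2 fold change of the 30 members was -0.062, and of all genes 0.020. For Scd1 the change was -0.95 (SE 0.65) from 977 ± 537 to 500.4 ± 401 CPM (SD, n = 5 and n = 6), for Acly -1.17 (SE 1.25) from 1066 ± 648 to 462 ± 315 CPM, and for Srebf2 0.89 (SE 1.69) from 141 ± 192 to 260.4 ± 127 CPM, each with an edgeR adjusted p of 1. Most standard errors in axons were above 1, so that changes of the size seen in somata were not detectable at this spread. Astrocyte marker sums had a median of 17140 CPM in control and 7247 CPM in stretched axons, and their part in these values was not tested. Whether the change with stretch differs between axons and somata was not tested, since such a test holds the contrast the set was chosen on.

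Set against control somata, with no pairing of libraries, axons of control cultures had higher levels of 3 members and a lower level of 1. These comparisons share the control soma libraries, or in stretched cultures the stretched soma libraries, with the soma contrast above. The set was chosen because Scd1 and Gpam were higher in stretched than in control somata. That choice favours a higher call for Scd1 in control axons and a lower call for Gpam in stretched axons. Of the 36 members, Cyp51, Scd1 and Scd2 were higher and Acacb was lower in control axons at an edgeR adjusted p under 0.05, where 35.3% of 14728 genes passed, 0.856% higher and 34.4% lower. The median log2 fold change was 0.53 for the cholesterol enzymes, of which 14 of 17 were above 0, and 0.30 for all 36 members, against -1.40 for all genes tested. The fatty acid genes had a median of 0.11 and the control genes one of -0.30. The median of all genes is not matched for soma level, which detection in axons followed. In somata 22 members were at 100 to 1000 CPM, where 85.2% of genes had counts in at least 6 axonal libraries. At 0.1 to 10 CPM that share was 5.91% of 10259 genes. Whether the members differ from genes of like level was not tested. With scaling by total counts in place of TMM, the median of all genes was -1.27 and that of the cholesterol enzymes 0.65.

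Scd1 was at 1498, 431, 1022, 378 and 1061 CPM in control axon replicates 1, 2, 3, 5 and 7 and ranged from 264 to 451 CPM (median 305) in control somata. Of the 5 axonal values 3 lay above 1000 CPM, and the other 2 within the soma range, so the groups overlapped. The change was 1.43 (SE 0.36) (edgeR adjusted p = 0.00787). The control soma values of Scd1 helped choose the set, so this p-value is given as a description only. Scd2 (ENSMUSG00000025203, chr19:44293674-44306864, plus strand, mm10) was at 482, 730.1, 1155, 721 and 1139.5 CPM in axons and ranged from 383 to 534 CPM (median 464) in somata, a change of 0.88 (SE 0.25) (edgeR adjusted p = 0.0148). Here 4 of 5 axonal libraries lay above every soma library. Cyp51 (ENSMUSG00000001467, chr5:4081145-4104746, minus strand, mm10) was at 584, 1092, 773, 989 and 914 CPM in axons and ranged from 455 to 641 CPM (median 532) in somata, a change of 0.69 (SE 0.21) (edgeR adjusted p = 0.0203). Again 4 of 5 axonal libraries lay above every soma library, replicate 1 being the exception in both genes. With no filter on low counts, none of the 3 passed (edgeR adjusted p 0.103 for Scd1, 0.289 for Scd2 and 0.383 for Cyp51), and Cyp51 did not pass without control soma replicate 1 (0.0601) or 3 (0.0501). None of the 3 passed with a block for the replicate number. Over all alternatives their adjusted p ranged from 0.000219 to 0.126, from 0.000405 to 0.32 and from 0.00154 to 0.383. Astrocyte markers summed to a median of 17140 CPM in control axons and 7813 CPM in control somata. Some control axon libraries (up to 21500 CPM) lay above every soma library (up to 13000 CPM). The part of astrocyte RNA in these differences was not tested.

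Acacb was without counts in control axons and had a mean of 1.50 ± 1.09 CPM in control somata (SD, n = 6), at least 13.3-fold lower in axons against the mean floor of 3 counts per library (edgeR adjusted p = 0.000842). Absence at this level is common, since genes at 0.1 to 10 CPM in somata had counts in a median of 0 axonal libraries. Acacb was not tested under a filter of at least 1 CPM. Gpam was at 73.1 CPM in control axon replicate 5 and at 0 in the other 4, against 76.9 to 142 CPM (median 105) in control somata, and did not pass (edgeR adjusted p = 0.538). That call rests on 1 library, since without control axon replicate 5 Gpam passed as lower (edgeR adjusted p = 2.3e-05). The members called then numbered 7, as they did without control axon replicate 1. Of members that did not pass, Hmgcs1 changed by 0.31 (SE 0.28), Idi1 by 1.17 (SE 1.31), Msmo1 by 0.82 (SE 0.37) and Srebf2 by -1.80 (SE 1.50). Msmo1 passed with DESeq2 (adjusted p = 0.0391), with total counts (edgeR adjusted p = 0.0334) and without control axon replicate 1 (0.0173).

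**Figure D5:**
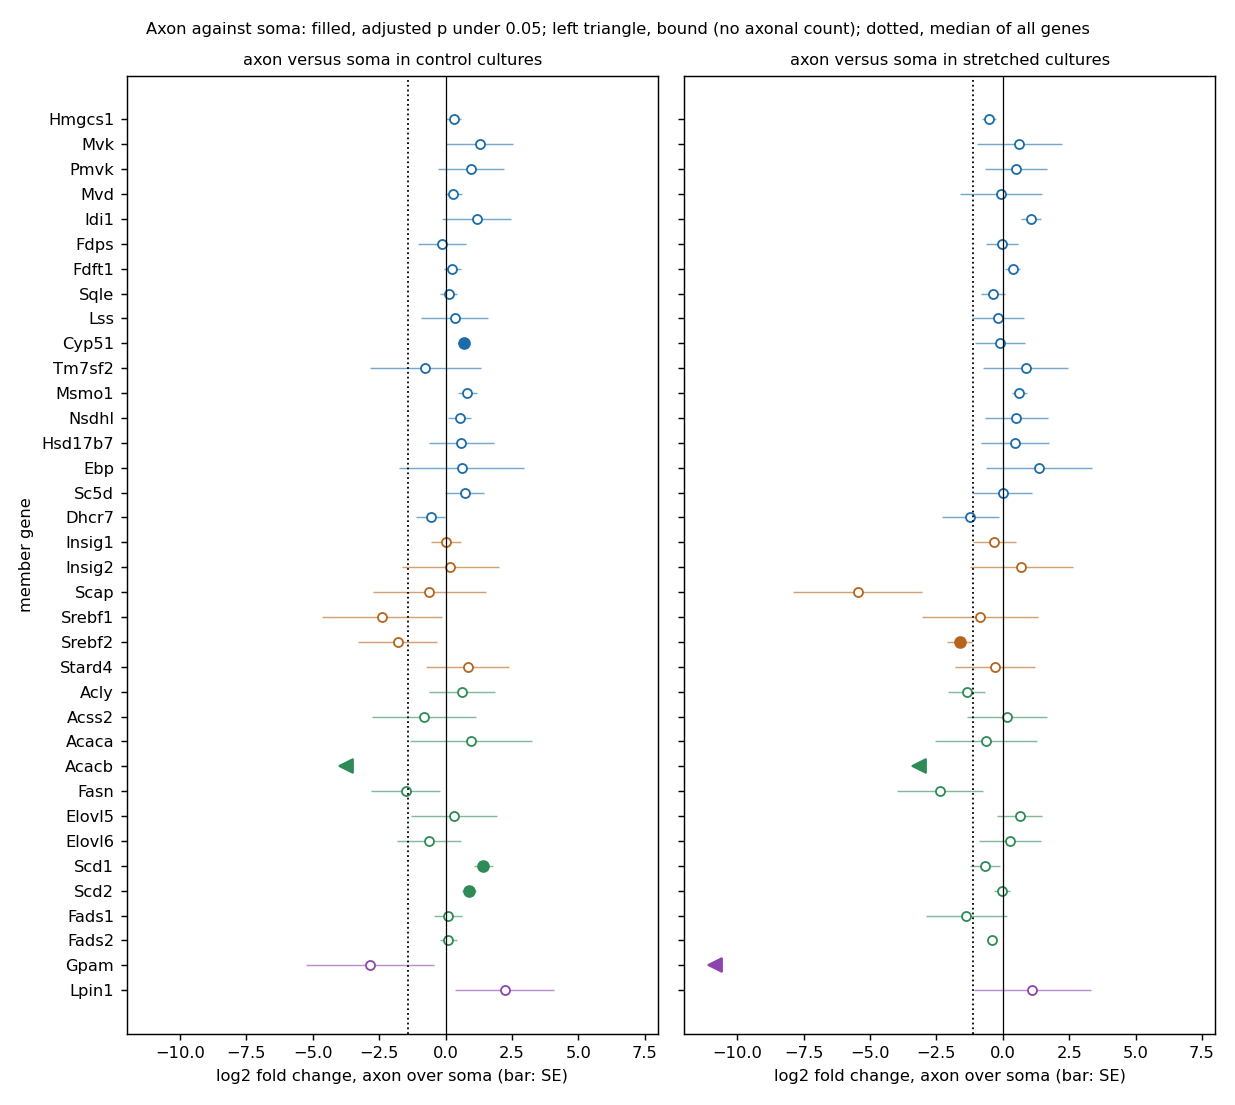
Log2 fold change of axon over soma for each member in control (left) and stretched cultures (right), with the standard error as a bar, filled points for an adjusted p under 0.05, triangles for bounds where no axonal library had a count and a dotted line at the median of all genes. In control cultures most cholesterol enzymes lie right of 0 and of the dotted line at -1.40, and in stretched cultures Gpam and Acacb are drawn as bounds. The dotted line is not matched for soma level.

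In stretched cultures 0 members were higher and 3 lower in axons, where 29.3% of 14466 genes passed, 0.843% higher and 28.4% lower. The median was 0.37 for the cholesterol enzymes, of which 9 of 17 were above 0, -0.62 for the fatty acid genes and -0.087 for all 36 members, against -1.13 for all genes tested. Here too the median of all genes is not matched for soma level. With total counts in place of TMM the median of all genes was -0.73, that of the 36 members 0.36, and 3 members were higher and 2 lower. Srebf2 ranged from 23.6 to 307 CPM (median 275) in stretched axons and from 639 to 757 CPM (median 689) in stretched somata. The groups did not overlap, and the change was -1.62 (SE 0.47) (edgeR adjusted p = 0.0199). It did not pass with a block for the replicate number, nor with total counts (edgeR adjusted p = 0.0694, and from 3.45e-05 to 0.117 over all alternatives).

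Gpam had no count in any stretched axon library and ranged from 163 to 276 CPM (median 210.4) in stretched somata, at least 1811-fold lower against the mean floor per library (edgeR adjusted p = 6.08e-06). The stretched soma values of Gpam helped choose the set, so this p-value is given as a description only. Acacb likewise had no axonal count and a mean of 1.06 ± 0.407 CPM in stretched somata (SD, n = 6), at least 8.89-fold lower (edgeR adjusted p = 1.66e-05). Absence from axons is common among genes at the soma level of Acacb. These bounds cover counting error only. In amplified low-input libraries a gene can be missed for other reasons, and stretched axon libraries had counts for 4263 to 10065 genes.

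The genes higher in control axons were not higher here: Scd1 ranged from 41.7 to 1002 CPM (median 420.2) in stretched axons and 541 to 937 CPM (median 669) in stretched somata, a change of -0.67 (SE 0.57). Scd2 changed by -0.025 (SE 0.30) and Cyp51 by -0.11 (SE 0.94). The edgeR adjusted p was 0.596 for Scd1, 0.988 for Scd2 and 0.984 for Cyp51. The signs of Scd2 and Cyp51 turned under total counts, to 0.50 and 0.32. Whether these axonal differences differ between control and stretched cultures was not tested, nor was the part of astrocyte RNA in them. Such a comparison holds the soma contrast the set was chosen on, in which Scd1 changed by 0.90. The astrocyte marker sum had a median of 7247 CPM in stretched axons, against 17140 CPM in control axons. Hmgcs1 changed by -0.52 (SE 0.25), Msmo1 by 0.62 (SE 0.29) and Idi1 by 1.06 (SE 0.37), and none passed (edgeR adjusted p = 0.184, 0.176 and 0.0532). Idi1 ranged from 105 to 278 CPM (median 179.8) in axons and 81.7 to 105 CPM (median 90.7) in somata, without overlap, and passed with relative log expression scaling (edgeR adjusted p = 0.0282), and from 0.00168 to 0.0315 with total counts, DESeq2 and without stretched axon replicate 1, 5 or 8. Without stretched axon replicate 1 in all 8 members passed, and 5 without replicate 5 or 8.

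Of the other genes of these routes, those of sterol storage, transport and efflux were lower in axons in 7 of 14 tested in control cultures (median -3.65) and in 5 of 14 in stretched cultures (median -1.27), with 0 higher. Of all genes tested, 34.4% were lower in control axons (median -1.40) and 28.4% in stretched axons (median -1.13), and whether this list differs from other genes was not tested. The exporter Abcg4 was without counts in axons, at least 296-fold lower in control and 401-fold lower in stretched axons (edgeR adjusted p = 5.12e-05 and 1.97e-05). In control axons Abca1, a sterol exporter, had none either (at least 101-fold lower, edgeR adjusted p = 3.62e-05), and Npc1 was at 31.0 ± 6.13 CPM in somata and had counts in 1 of 5 axonal libraries (edgeR adjusted p = 2.28e-05). In stretched axons the exporter Abcg1 and Mylip, a ligase that marks lipoprotein receptors for degradation, had no count (at least 171-fold and 37.9-fold lower, edgeR adjusted p = 1.73e-05 and 1.2e-06). Other fatty acid and glycerolipid genes were lower in 7 of 31 and in 5 of 32, with 0 and 1 higher. The lower calls were smaller shares than the 34.4% and 28.4% of all genes, which are not matched for soma level. Of all genes 0.856% and 0.843% were higher. In control axons the triglyceride enzymes Dgat1 and Dgat2 and the acyl-CoA synthetase Acsl1 were without counts, which puts them at least 303-fold, 670.4-fold and 438-fold below somata (edgeR adjusted p = 4.78e-05, 4.26e-05 and 4.78e-05). In stretched axons Gpat3, Elovl7 and Agpat2 had none, at soma means of 2.16, 1.95 and 1.24 CPM. Other genes of sterol synthesis and its control were lower in 0 of 13 and in 1 of 13. The latter was Mbtps2, with no count in stretched axons and 78.3 ± 10.7 CPM in stretched somata (SD, n = 6; at least 658-fold lower, edgeR adjusted p = 1.49e-05). Genes at 10 to 100 CPM in somata had counts in a median of 4 of 11 axonal libraries, and 30.7% of them in at least 6. At 0.1 to 10 CPM the median was 0. The genes named have the largest changes of their lists, a rule that favours genes without axonal counts. Their bounds cover counting error only. With stretch in axons 0 of 4, 0 of 19 and 0 of 6 tested genes of these 3 lists passed.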

How the data were processed

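The authors deposited 1 table of read counts per library, with whole-number counts for 55487 Ensembl gene identifiers and 5 totals of uncounted reads. The totals equalled 14.2% to 24.4% of the reads listed and were left out. The submitters' processing notes name FastQC 0.11.9, MultiQC 1.12, fastp 0.20.1, STAR 2.7.08a, HTSeq 0.13.5 and the genome build mm10. The annotation, the strand setting and any use of the unique molecular identifiers (UMIs) named in the labels' protocols are not given in the sources used here, so amplified copies may be counted. Overlapping and antisense genes cannot be told apart without the strand setting. Intervals and floors cover counting error only. Symbols were matched by identifier (55141 of 55487), and gene coordinates and lengths are those of GENCODE M21 on GRCm38, the same assembly as mm10.

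Each comparison was fitted on its own 2 groups with edgeR 4.0.16 in R 4.3.3 (filterByExpr, TMM, quasi-likelihood F test with robust estimation), with Benjamini-Hochberg adjustment over all genes tested and a threshold of 0.05. An SE is the size of the log2 fold change divided by the square root of F. Printed CPM are TMM-normalised within the comparison named. A list is described by its counts and its median. The alternatives were total counts, relative log expression scaling, no filter or a mean of at least 1 CPM, DESeq2 1.42.0, a block for the replicate number, each library left out, and for somata the Eif2s3y sets, length and GC offsets (smooths from mgcv 1.9.3) and both libraries numbered 4 left out. The scripts were tested on simulated data.

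All 36 members are accounted for. Library values are printed for the 3 highest and 3 lowest soma changes, the 4 highest levels per length in control somata, Srebf1, Srebf2, Insig1 and, in axons, members with counts in at least 6 of 11 libraries or past the threshold, and up to 3 genes of each other list per comparison, those with the largest change. One gene that this rule names is not reported here. Further members were named after their values were seen. The members, lists, tests and most alternatives were chosen with earlier results of these data known.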

Additional observations from a re-analysis of the deposited data

Results flagged for a closer look

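In the 141 sets of library values examined (a member in a group with counts, on the scales of the soma contrast for somata and of the axon against soma contrasts for axons), 17 had a highest or lowest library whose gap to the nearest other was large for the range of the group by Dixon's criterion at its 95% level. Chance gives such a gap in about 1 in 20 groups. Of the 17, 4 were in somata and 13 in axons, where values at or near 0 beside values above 100 CPM are common.

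In somata, control replicate 4 stood above the other controls for Srebf2 at 615 CPM (others 309 to 392) and for Acaca at 55.4 CPM (others 35.4 to 41.9). Stretched replicate 1 stood above its group for Tm7sf2 at 81.4 CPM (others 51.0 to 59.9), and stretched replicate 4 for Acaca at 61.3 CPM (others 48.7 to 52.1).

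In control axons, replicate 1 was highest for Acaca at 436 CPM (others up to 0.196) and for Fads2 at 2552 CPM (others 774 to 1134), and replicate 3 for Tm7sf2 at 158 CPM. Replicate 5 was highest for Ebp at 253 CPM, Srebf1 at 61.6 CPM and Gpam at 73.1 CPM, and was the only control axon library with counts for Ebp and Gpam. Replicate 7 was highest for Scap at 269 CPM, and replicate 2 was lowest for Elovl6 at 0 CPM (others 119 to 150.0).

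In stretched axons, replicate 1 was lowest for Pmvk at 0 CPM (others 294 to 353), and replicate 4 was highest for Dhcr7 at 311 CPM (others up to 87.0). Replicate 8 was highest for Scap at 14.8 CPM, the only stretched axon library with counts for that gene, and for Acaca at 174 CPM (others up to 61.2). Replicate 6 was highest for Lpin1 at 453 CPM (others up to 148).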

How the results depend on the processing

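In somata 12 members were called and 4 in control axons against somata, 3 in stretched axons against somata and 0 with stretch in axons. With each library left out these counts ranged from 6 to 15, from 2 to 7, from 3 to 8 and from 0 to 0. The soma count was 0 within the low Eif2s3y set. The control axon count was 1 with no filter, and the stretched axon count was 5 with total counts and 6 with DESeq2.

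Whether replicate numbers pair the libraries was not settled. The correlation of deviations was above 0.1 in 4 of 5 soma pairs (0.0028 to 0.397), and 4 of 10 partnered soma libraries correlated best with their own number. In the other comparisons 0 of the pairs were above 0.1. There the spread between libraries (biological coefficient of variation 1.66 to 2.39) could hide a pairing. With the replicate block the counts were 10 in somata, 0 in control axons, 3 in stretched axons and 0 with stretch in axons. In the control axon contrast Scd1 (1.23, edgeR adjusted p = 0.126), Scd2 (0.72, 0.32) and Cyp51 (0.75, 0.242) then did not pass, nor did Srebf2 in the stretched contrast (-1.86, 0.117).

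Of the members called in somata, Mvd changed sign (0.028 with length and GC offsets, 0.092 with offsets and the replicate block). Of those not called there, several did under some alternatives, among them Pmvk (0.027 with the offsets) and Scap (-0.062 within the low Eif2s3y set). In axons against somata the sign turned for Idi1 in control axons (-0.18 with the block), Cyp51 in stretched axons (0.32 with total counts, and from -0.28 to 0.15 with a library left out) and Scd2 in stretched axons (0.50 with total counts, 0.15 with relative log expression scaling or DESeq2, 0.021 with the block, and from -0.12 to 0.23 with a library left out). The cause was not tested. For axons against somata these alternatives were run for 9 members, picked after the fits were seen: Hmgcs1, Idi1, Msmo1, Cyp51, Srebf2, Scd1, Scd2, Gpam and Acacb. In axons the spread between libraries (biological coefficient of variation 2.39, against 0.240 in somata) limits what can be seen.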
